A study of Mus musculus with 27 samples.

Results

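Whole retina at postnatal day 6 (P6) was compared with whole retina at postnatal day 1 (P1) by RNA-seq, with 3 libraries at P6 and 4 at P1, chosen by age among 27 libraries that run from embryonic day 14 (E14) to P60. All 7 libraries came from wild type C57BL/6J mice, an inbred laboratory strain, kept on a light and dark cycle and dissected in the light phase, with no treatment and no engineered allele. Each library was made from total RNA of pooled retinas: the labels give 3 retinas per library and the methods describe pools from several mice, of mixed sex at P1 and of males at P6. Nothing states how pools of one age were related. The p-values rest on the spread between libraries of one age, estimated over all 27 libraries, which per the methods include single mice at P60.

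In the mouse the retina is made from a shared pool of dividing progenitor cells. Cones, ganglion cells, horizontal cells and most amacrine cells are born mainly before birth, and rods, bipolar cells and Müller glia continue to be born in the first days after it, until division stops in the center and then at the edge of the retina. Rods then build a light-sensitive outer segment on a modified cilium, and photoreceptors and bipolar cells join at ribbon synapses in the outer plexiform layer.

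The deposited level of a gene is its read count scaled to the library total, in cpm, the share of reads times a fixed factor. Reads counted over all features numbered 7931765 to 8842284 in the P1 libraries (median 8302294) and 7076646 to 9245082 in the P6 libraries (median 7251429). These are fewer than the reads that the methods give as collected per library. On this scale 3 reads, taken as the limit of detection, were worth 0.339 to 0.378 cpm at P1 and 0.324 to 0.424 cpm at P6. Differences are given as P6 minus P1 on the log2(cpm + 1) scale, which understates the change of low genes, with the standard error (SE) and an adjusted p from limma. A gene rose or fell where the adjusted p was under 0.05 and the difference was at least 1 in size. In bulk retina, fewer cells of a type and less RNA per cell cannot be told apart.

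Of the 7 libraries, a P1 pool stood apart in its sex-linked genes and a P6 pool in its order among the features that changed. P1 replicate 3 had 1093 cpm of Xist, the RNA that coats the inactive X chromosome, and 0 cpm of the Y-linked gene Ddx3y, whereas the other 6 libraries had 0.424 to 1.73 cpm of Xist and 46.9 to 53.1 cpm of Ddx3y. No P1 library had a high level of both, which goes against the mixed sex that the methods give for P1 pools. P6 replicate 1 had the highest of the 3 P6 levels for 50.9% of the features that rose and the lowest for 41.8% of those that fell, against 34.9% and 32.4% of all features tested. Among rod phototransduction genes it was the highest P6 library for 19 of 21, and among mitosis genes the lowest for 26 of 47. The part of this order in the results was not tested. Without P6 replicate 1, 4077 features changed, without P1 replicate 3, 4194, and with all 7 libraries, 4141. Across features, Pearson's r was 0.9835 to 0.9887 for pairs of libraries of one age and 0.9113 to 0.9248 for pairs of a P1 and a P6 library. By this measure P1 replicate 2 was the least like its age, at 0.9835 to 0.9855 against 0.9871 to 0.9879 for the other P1 pairs. P6 replicate 1 had r of 0.9882 and 0.9874 with the other P6 libraries, which had 0.9887 with each other.

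Regions upstream of some of the genes with the largest falls and rises are shown first. The regions shown hold short motifs that factors of the cell cycle and of photoreceptors are known to bind. TTTGAA is the core of the cell cycle homology region, an element of genes used late in the cell cycle. TAATCC is the core bound by the homeodomain factors CRX and OTX2 of photoreceptors and bipolar cells. Both were searched on either strand, where they read TTCAAA and GGATTA, and they cannot overlap each other. The stretches printed are the 250 bases before the gene start in RefSeq's GRCm38.p6 promoters, written in the direction of the gene. Capitals mark only TTTGAA in genes that fell and only TAATCC in genes that rose, on either strand. Matches of the other motif are not marked, such as the TTCAAA upstream of Gucy2f. The stretches belong to genes with a match to the marked motif among the 10 top risers and the 10 top fallers. This choice was made after their values were seen. Hist1h2ao also had a match, and its stretch is not printed. Genes of chromosomes and the cell cycle that fell are given first.
Top2a (chr11:99024190-99024439, minus strand): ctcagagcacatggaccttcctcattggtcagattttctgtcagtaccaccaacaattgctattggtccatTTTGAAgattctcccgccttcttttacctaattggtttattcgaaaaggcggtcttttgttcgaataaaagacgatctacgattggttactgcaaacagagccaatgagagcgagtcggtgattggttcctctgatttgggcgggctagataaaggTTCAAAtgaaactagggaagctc
Mki67 (chr7:135716380-135716629, minus strand): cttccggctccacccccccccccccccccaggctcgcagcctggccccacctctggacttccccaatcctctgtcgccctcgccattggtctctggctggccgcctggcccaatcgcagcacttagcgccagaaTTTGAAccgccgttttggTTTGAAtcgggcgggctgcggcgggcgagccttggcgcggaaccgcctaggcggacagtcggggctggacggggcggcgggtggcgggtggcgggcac
E2f8 (chr7:48881597-48881846, minus strand): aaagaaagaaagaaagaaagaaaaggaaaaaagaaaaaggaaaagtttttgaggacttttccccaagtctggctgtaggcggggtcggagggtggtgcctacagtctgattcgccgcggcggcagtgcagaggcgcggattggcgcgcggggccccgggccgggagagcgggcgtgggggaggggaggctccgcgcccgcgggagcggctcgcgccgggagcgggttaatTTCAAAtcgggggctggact
Genes of the phototransduction and bipolar cascades that rose follow.
Cnga1 (chr5:72642753-72643002, minus strand): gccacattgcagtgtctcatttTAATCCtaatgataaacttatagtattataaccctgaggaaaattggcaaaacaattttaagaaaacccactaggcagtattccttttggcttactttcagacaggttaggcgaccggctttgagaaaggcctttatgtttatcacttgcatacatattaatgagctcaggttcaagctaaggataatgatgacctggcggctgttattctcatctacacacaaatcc
Trpm1 (chr7:64153585-64153834, plus strand): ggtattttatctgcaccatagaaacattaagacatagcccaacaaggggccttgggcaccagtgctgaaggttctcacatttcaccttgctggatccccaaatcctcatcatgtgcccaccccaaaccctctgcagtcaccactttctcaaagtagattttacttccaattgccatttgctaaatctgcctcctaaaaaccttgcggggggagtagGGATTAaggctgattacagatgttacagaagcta
Gucy2f (chrX:142196937-142197186, minus strand): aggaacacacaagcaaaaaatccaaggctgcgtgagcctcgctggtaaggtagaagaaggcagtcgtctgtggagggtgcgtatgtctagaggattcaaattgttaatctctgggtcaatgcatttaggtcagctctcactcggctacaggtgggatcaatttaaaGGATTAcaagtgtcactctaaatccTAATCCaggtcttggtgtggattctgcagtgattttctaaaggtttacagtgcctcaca

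The matches began 179 and 23 bases before the gene start in Top2a, 116 and 98 bases before it in Mki67 and 20 bases before it in E2f8. In the rising genes they began 228 bases before the start of Cnga1, 34 before that of Trpm1 and 84 and 59 before that of Gucy2f. Of the 10 genes with the largest fall, 9 had a promoter in the table and 4 held TTTGAA upstream, the last being the histone gene Hist1h2ao. Of the 10 with the largest rise, 7 had a promoter and 3 held TAATCC. Over the 300 bases from 250 before to 50 after the start, TTTGAA occurred in 12.3% of the 12897 promoters of tested genes, in 22.1% of the 1008 that fell and in 11.1% of the 865 that rose. It was present in 30 of 40 promoters of the mitosis list and in 4 of 39 of the DNA replication list. Among the replication-dependent histones, whose messages are made in S phase, 27 of 58 promoters held it (46.6%). TAATCC occurred in 6.0% of all promoters, in 11.4% of those of genes that rose and in 3.9% of those of genes that fell. It was present in 7 of 13 rod phototransduction promoters and in 0 of 40 mitosis promoters. The counts were 2 of 9 for cone phototransduction, 6 of 17 for photoreceptor transcription factors and 5 of 8 for markers of the pigment epithelium. These are counts of letters in a window and not of bound sites.

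Of 31760 features tested, 2000 rose (6.30%) and 2141 fell (6.74%), and the median difference over all features was -0.03. The counts given for each list below are to be read against these shares. By adjusted p alone, with no minimum difference, 38.3% of features differed. A further 8 features had a difference of at least 1 in size and missed the adjusted p, among them Xist, Ddx3y and the Y-linked genes Uty, Eif2s3y and Kdm5d. A difference of at least 3 in size was reached by 106 features that rose and 167 that fell. Features without a Gene ID rose in 5.71% and fell in 5.82% of cases.

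**Figure D1:**
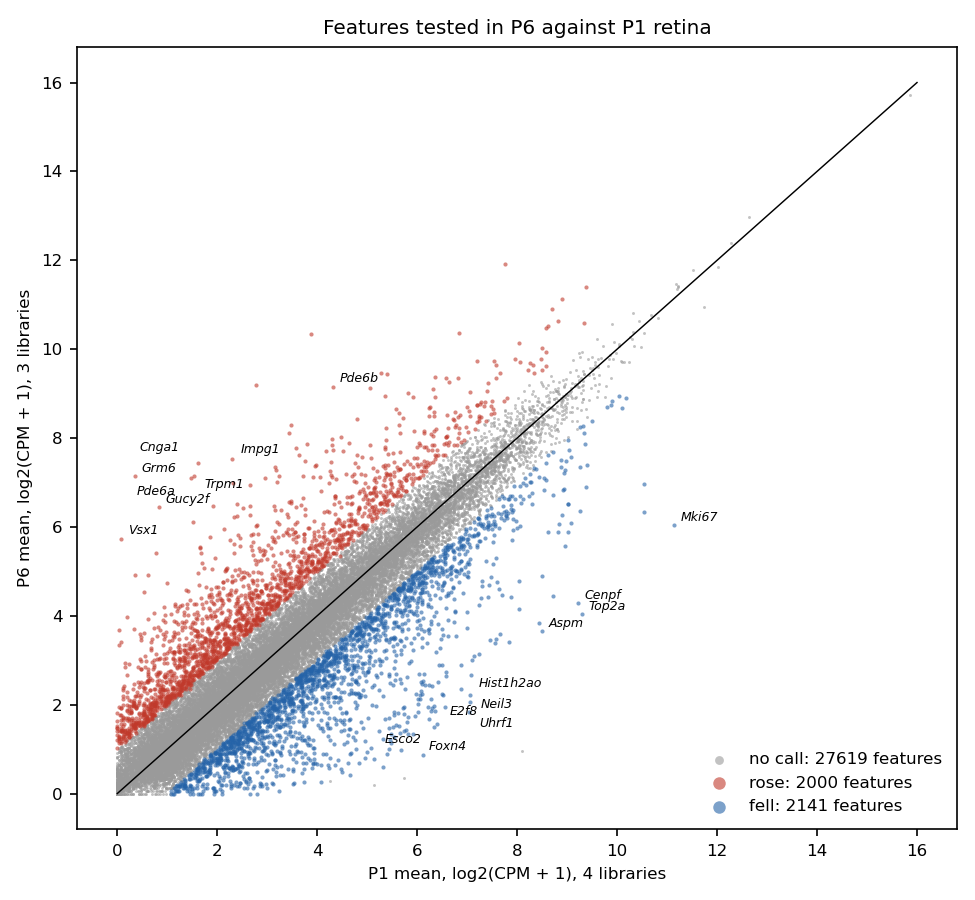
Each point is a feature tested, with its mean level in the 4 P1 libraries on the horizontal axis and in the 3 P6 libraries on the vertical axis, both as log2(cpm + 1), and the line marks equal levels. The 2000 features that rose lie above the line and the 2141 that fell below it, with Grm6 farthest above and Top2a, Foxn4 and Uhrf1 farthest below.

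The largest falls belonged to genes of dividing cells. Of 47 mitosis genes tested, 46 fell, and the median difference of the list was -3.96. The median gene kept 4.52% of its P1 level, and the summed level of the list was 7530 to 8145 cpm in the P1 libraries and 431 to 499 cpm in the P6 libraries. Top2a, the topoisomerase that untangles chromosomes for segregation, measured 671, 565, 629.6 and 647 cpm at P1 and 14.4, 16.4 and 15.4 cpm at P6, a difference of -5.26 (SE 0.19, adjusted p 3.2e-20). Mki67, which coats mitotic chromosomes and marks cycling cells, measured 2355, 2366, 2315 and 1997 cpm at P1 and 51.4, 71.3 and 72.1 cpm at P6, a difference of -5.11 (SE 0.32, adjusted p 1.2e-14). For both genes the P1 and P6 libraries lay far apart, and P1 replicate 4 was the lowest P1 library for Mki67.

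Other genes of chromosome segregation moved the same way. Cenpf, a kinetochore protein, went from a mean of 593 ± 45.6 cpm (SD, n = 4) to 18.4 ± 2.57 cpm (SD, n = 3), and Aspm, a spindle pole protein, from 362 ± 16.9 to 11.6 ± 2.13 cpm. Ccnb1, the cyclin of mitotic entry, measured 48.7 to 57.1 cpm at P1 and 1.62 to 2.90 cpm at P6, 26.4-fold lower. The mitotic kinase Aurkb was 42.0-fold lower (38.7 to 45.6 against 0.965 to 1.08 cpm) and Plk1, another, 11.4-fold lower (20.8 to 24.4 against 1.70 to 2.21 cpm). Esco2, which joins sister chromatids, and Neil3, a DNA repair glycosylase, were also among the 10 largest falls, at -4.86 and -5.03. The exception in the mitosis list was Pttg1, which inhibits separase, at 2.37 to 2.71 cpm at P1 and 2.12 to 2.21 cpm at P6, a difference of -0.16 (SE 0.18, adjusted p 0.52).

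DNA replication genes fell less steeply. Of 50 tested, 40 fell and none rose, with a median difference of -1.89. By adjusted p alone 48 were lower. Mcm2, a subunit of the replicative helicase, measured 105, 94.3, 87.9 and 100.2 cpm at P1 and 9.89, 9.30 and 12.7 cpm at P6 (difference -3.08, SE 0.17, adjusted p 3.9e-16). Its partner Mcm3 was 20.9-fold lower and the checkpoint adaptor Clspn 21.1-fold lower. Rrm2, the ribonucleotide reductase subunit that supplies deoxynucleotides in S phase, fell by 4.03 on the log2 scale, whereas Tyms, which makes thymidylate, fell by 1.98 and still measured 14.4 to 17.1 cpm at P6. Uhrf1, which brings the maintenance methylase to new DNA, measured 116 to 138 cpm at P1 and 2.34 to 2.81 cpm at P6, 50.7-fold lower. The 10 replication genes with no call had differences from -0.17 (Gins2, Rpa1) to -0.99 (Orc6).

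Histone genes of the replication-dependent clusters, whose messages are made in S phase, went down with them. Of 65 tested, 59 fell and none rose, with a median difference of -2.72. The median was -2.88 when the 9 genes with no more than 3 reads per library at 1 of the ages were set at that limit. Hist1h2ao measured 118 to 167 cpm at P1 and a mean of 3.64 ± 0.378 cpm (SD, n = 3) at P6 (difference -4.83, SE 0.29, adjusted p 6.8e-15), and the linker histone Hist1h1b 73.2 to 89.9 against 2.21 to 3.14 cpm. These genes are near-identical copies, and reads that could match several may have been assigned to any of them, so single copies are uncertain. The genes with no call included Hist2h2be (-0.15), Hist1h4c (-0.68) and Hist1h2bc (-0.87).

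Regulators of the G1 phase were divided. Of 30 tested, 16 fell and none rose. Ccnd1, the D-type cyclin of retinal progenitors, measured 1585, 1344, 1445 and 1588 cpm at P1 and 65.0, 85.3 and 88.1 cpm at P6, 18.8-fold lower (difference -4.22, SE 0.12, adjusted p 2.0e-23). The E2F factors that switch on S phase or restrain it fell together, with E2f1 at -3.36, E2f7 at -4.28 and E2f8 at -4.83, while E2f3 (0.05) and E2f4 (-0.18) had no call. Of the inhibitors that hold cells out of the cycle, Cdkn2c (-2.91) and Cdkn2b (-1.18) fell and the other 4 tested had no call. Cdkn1b, which encodes p27, measured 131 to 141 cpm at P1 and 89.6 to 94.5 cpm at P6 (-0.55), and Cdkn1c, which encodes p57, 28.8 to 39.3 against 31.2 to 32.9 cpm (-0.03, adjusted p 0.92). The cyclins Ccnd2 (-1.05) and Ccnd3 (0.01) differed from Ccnd1 in size.

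**Figure D2:**
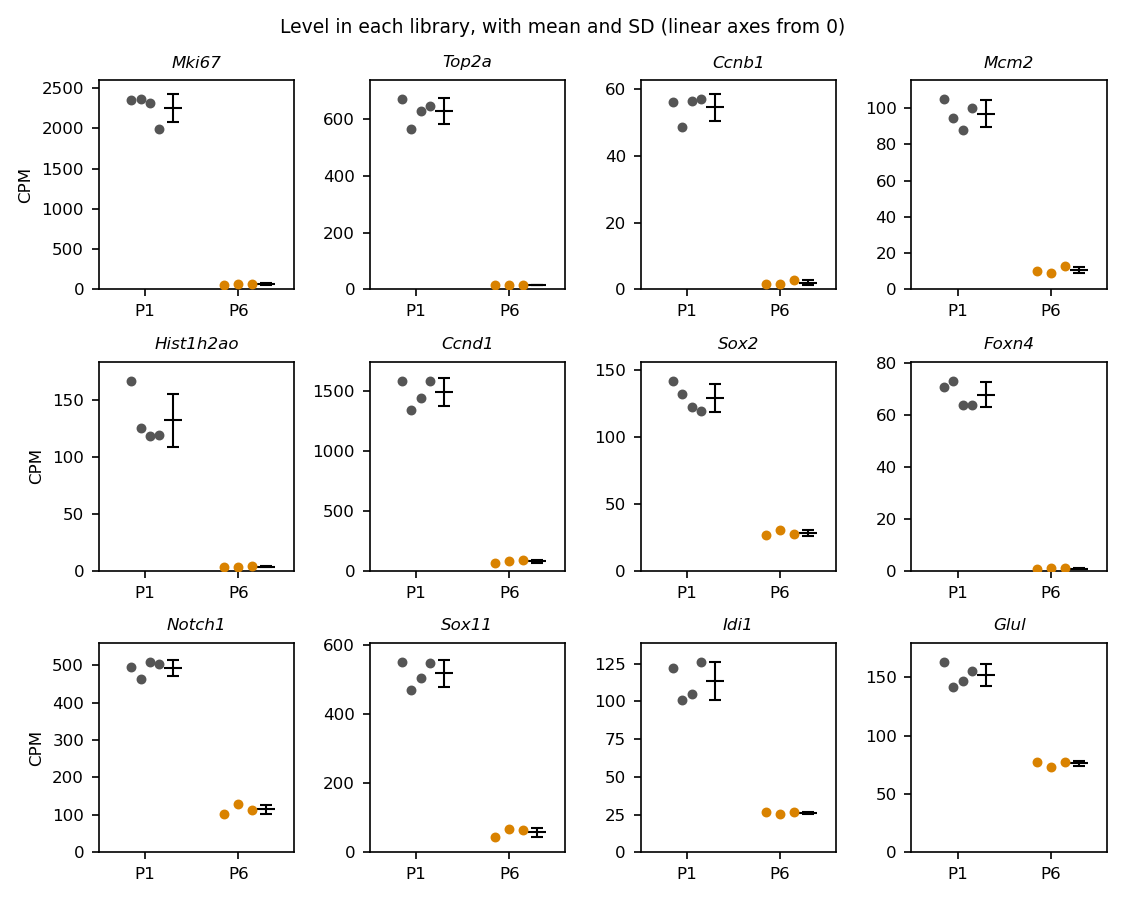
Points are the cpm of each library at P1 (4, gray) and P6 (3, orange), on linear axes that start at 0 and differ between genes, with the mean and SD in black beside them. In all 12 genes, with roles in the cell cycle, progenitors, young neurons, sterol synthesis (Idi1) and glutamine synthesis (Glul, at -0.98 under the minimum for a call), every P6 library lies below every P1 library.

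Transcription factors of progenitors and of newly committed neurons fell for the most part. Of 29 tested, 22 fell and 1 rose, with a median difference of -2.08. Foxn4, a factor of amacrine and horizontal cell competence, measured 70.9, 73.4, 63.9 and 63.8 cpm at P1 and 0.565, 0.973 and 0.965 cpm at P6, 81.5-fold lower (difference -5.24, SE 0.16, adjusted p 2.5e-22). Fgf15, a growth factor of progenitors, was 34.2-fold lower, with 0.706 cpm in P6 replicate 1 and 2.48 and 3.35 cpm in the other P6 libraries. Atoh7, which gives competence for the ganglion cell fate, fell from 5.42 to 10.2 cpm to 0.138 to 0.757 cpm. Sox2 was 4.54-fold lower and Olig2 8.82-fold lower.

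Some members of the same list did not follow. Insm1, a zinc finger factor of newly born neurons, rose from 71.0 to 95.9 cpm to 180.1 to 212 cpm. Neurod4 (-0.03), Ikzf1 (0.26) and Meis1 (-0.58) had no call.

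The Notch pathway is the signal by which neighboring cells keep each other from differentiating. Of its 27 genes tested, 14 fell, 1 rose and 12 had no call. Notch1 measured 462 to 508 cpm at P1 and 102 to 128 cpm at P6, 4.29-fold lower, and its ligand Dll1 77.4 to 96.2 against 16.4 to 23.2 cpm, 4.32-fold lower. Among the target genes, Hes5 fell by 2.52 and Heyl by 3.63 on the log2 scale, while Hey1 (-0.08) had no call. Jag1, another ligand, was the member that rose, from 5.52, 8.19, 5.65 and 5.91 cpm to 34.2, 28.6 and 27.6 cpm (difference 2.10, SE 0.13, adjusted p 3.1e-14). Parts of the machinery that is shared by many cells, such as Adam10 (-0.36) and Numb (0.14), had no call.

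Genes of chromatin and developmental timing were mixed: of 41 tested, 17 fell and 2 rose. Igf2bp1, an RNA-binding protein of early tissue, went from 72.1 to 92.1 cpm to 2.48 to 3.24 cpm, and its relative Igf2bp2 was 5.81-fold lower. The polycomb methylase Ezh2 fell by 1.21 on the log2 scale, while Ezh1, its counterpart in resting cells, had a difference of 0.54. Lbr, which tethers heterochromatin to the nuclear envelope, was 3.72-fold lower, and Lmna, the A-type lamin, measured 4.61 to 6.68 cpm at P1 and 5.51 to 5.95 cpm at P6 (0.01, adjusted p 0.98). Lin28b fell by 1.10, a call that was lost without P1 replicate 4 and without P6 replicate 1. The members that rose were Dpf3 (1.28), a subunit of the neuronal chromatin remodeling complex, and the nuclear factor Nfic (1.25).

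**Figure D3:**
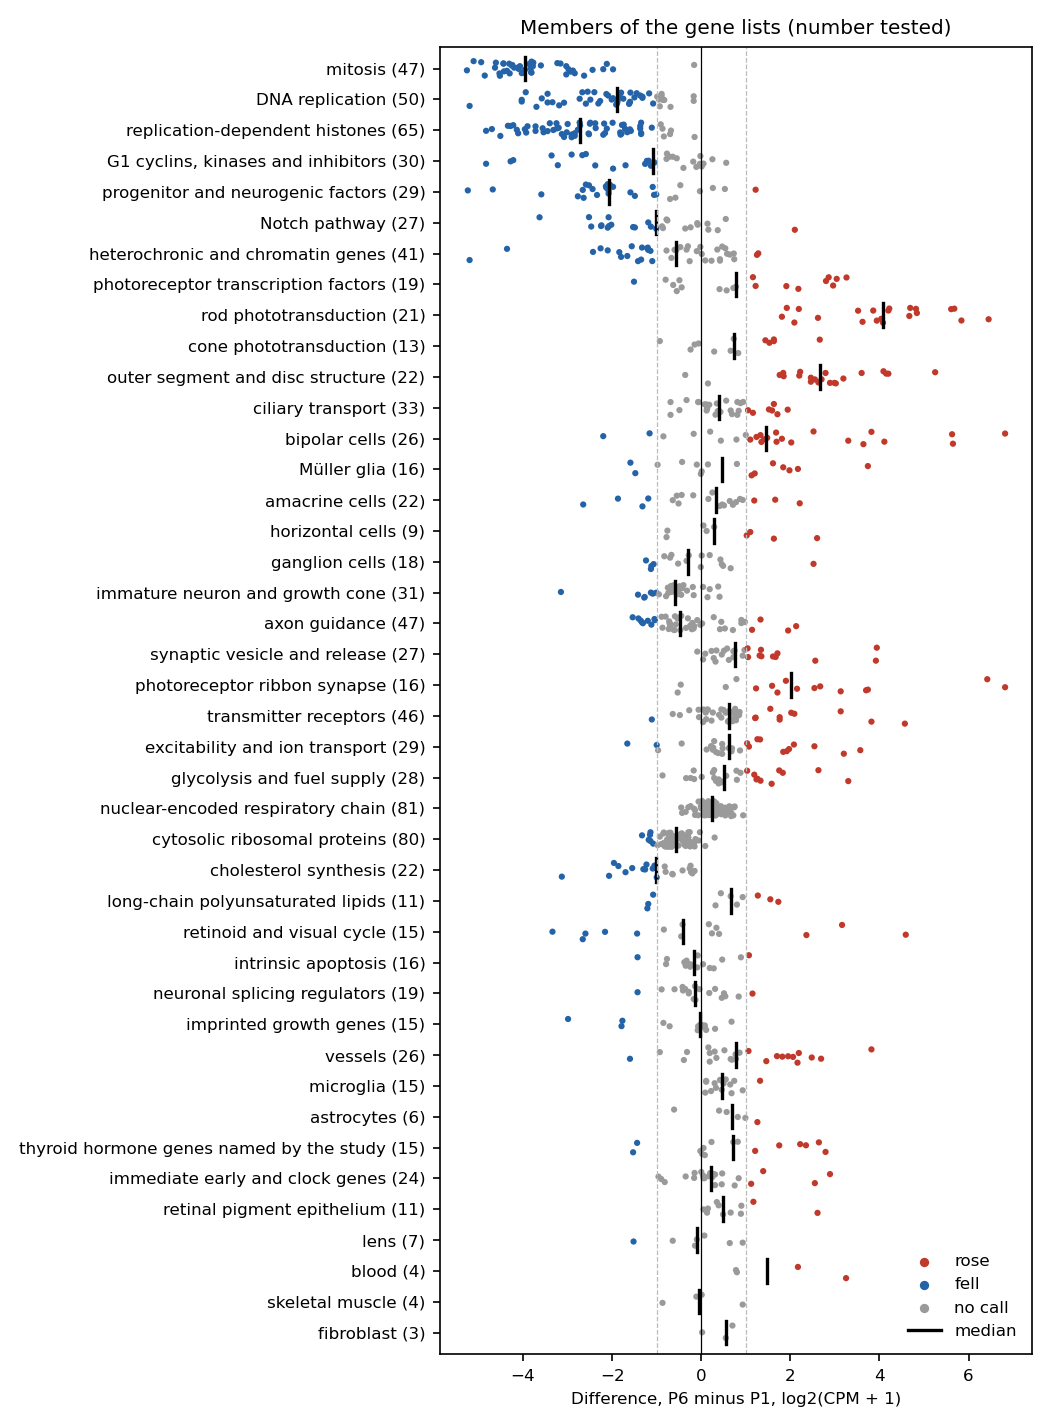
Each point is a gene of the list named at the left, placed by its difference, P6 minus P1, on the log2(cpm + 1) scale, with genes that rose in red, genes that fell in blue and genes with no call in gray; vertical bars are list medians and dashed lines mark differences of 1. Mitosis genes (median -3.96) and rod phototransduction genes (median 4.08) lie at the opposite ends, while the respiratory chain genes cluster near 0.23.

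Photoreceptor transcription factors were higher at P6, in part. Of 19 tested, 9 rose and 1 fell. Nrl, the leucine zipper factor that commits cells to the rod fate, measured 41.7, 42.4, 42.5 and 35.5 cpm at P1 and 302, 299.6 and 296 cpm at P6, 7.39-fold higher. Nr2e3, a nuclear receptor that represses cone genes in rods, was 8.23-fold higher (67.0 to 92.5 against 649 to 677 cpm), and Crx, the homeodomain factor of both photoreceptor types, 3.75-fold higher (375 to 410.4 against 1449 to 1494 cpm). The nuclear cofactors Samd7 and Ankrd33 rose by 2.96 and 3.26 on the log2 scale. Factors used when photoreceptors are first specified had no call, with Otx2 at 0.41, Neurod1 at 0.78 and Prdm1 at -0.44, the last measuring 284 to 303 cpm at P1 and 201 to 228 cpm at P6. Rxrg (-0.63) and Rorb (-0.80) also had no call, and Nr2f1 was the factor that fell (-1.51).

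Every rod phototransduction gene tested rose, 21 of 21, with a median difference of 4.08, and the same 21 of 21 rose without P6 replicate 1. The summed level of the list was 891 to 954 cpm at P1 and 7771 to 9406 cpm at P6. Pde6b, a catalytic subunit of the phosphodiesterase that lowers cyclic GMP in light, measured 22.2, 19.8, 16.7 and 17.2 cpm at P1 and 632, 524 and 556 cpm at P6, 30.1-fold higher (difference 4.84, SE 0.14, adjusted p 5.9e-23). The P6 libraries did not come near the P1 libraries, and P6 replicate 1 was the highest.

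Other steps of the rod cascade rose to different degrees. Gnat1, the rod transducin, measured 2.49 to 6.27 cpm at P1 and 88.3, 44.7 and 92.0 cpm at P6, 17.7-fold higher and with the largest SD relative to its mean among the 21 rod genes at P6. Pde6a, the other catalytic subunit, went from 0.452 to 2.72 cpm to 117 to 171 cpm. Cnga1, the channel subunit that closes in light, went from 1.42 to 2.58 cpm to 155 to 203 cpm, and Gucy2f, a guanylate cyclase that restores the messenger, from 0.339 to 0.981 cpm to 74.6 to 97.8 cpm. Sag, the arrestin of rods, was 18.9-fold higher. Smaller rises were seen in Gnb1 (1.81), a G protein subunit used by many cells, Guca1b (1.92) and Gnb5 (2.09).

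Cone phototransduction genes moved less. Of 13 tested, 5 rose and none fell, with a median difference of 0.73. Arr3, cone arrestin, was 7.86-fold higher (3.31 ± 0.797 against 26.0 ± 1.44 cpm), Pde6c, the cone phosphodiesterase, 3.17-fold higher and Gnb3, the transducin subunit of cones and ON bipolar cells, 3.15-fold higher. The short-wave opsin Opn1sw measured 40.8, 29.0, 36.4 and 47.9 cpm at P1 and 52.7, 44.3 and 43.2 cpm at P6, with overlapping ages and a difference of 0.29 (SE 0.14, adjusted p 0.12). Opn1mw, the medium-wave opsin, was at 0 to 0.118 cpm at P1 and 0.108 to 1.10 cpm at P6, close to the limit of detection. Gngt2 (-0.15), Cnga3 (-0.24) and Cngb3 (-0.06) had no call, and Gngt2 and Opn1sw overlap genes on the opposite strand.

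Structural genes of the outer segment rose nearly throughout, 20 of 22 tested, with a median difference of 2.67. Prph2 and Rom1, the tetraspanins that shape the disc rim, were 17.5-fold and 9.52-fold higher, at 29.1 to 36.3 against 531 to 612 cpm and 20.2 to 22.9 against 197 to 219 cpm. Rp1, a microtubule protein of the axoneme, measured 218, 217, 210.2 and 214 cpm at P1 and 4186, 3659 and 3701 cpm at P6 (difference 4.15, SE 0.08, adjusted p 2.0e-26). Impg1, a proteoglycan of the matrix around outer segments, went from 2.40 to 4.61 cpm to 168 to 203 cpm, and Abca4, the retinoid flippase of discs, was 19.9-fold higher. Rp2 (-0.36) and Crb1 (0.15) had no call. P6 replicate 1 was the highest P6 library for 18 of the 22 genes, and 20 rose without it.

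Transport genes of the cilium on which the outer segment is built had smaller differences. Of 33 tested, 7 rose and none fell, with a median difference of 0.40. Those that rose were Cep290 (1.71), a protein of the ciliary gate, the Bardet-Biedl genes Bbs1, Bbs5, Bbs7 and Bbs9 (1.05 to 1.94) and the small GTPases Arl6 (1.52) and Arl13b (1.16). The intraflagellar transport gene Ift88 measured 22.3 to 31.1 cpm at P1 and 30.1 to 39.2 cpm at P6 (0.40), and the ciliary motor Kif17 was near the limit of detection at both ages (0.43, adjusted p 0.16).

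**Figure D4:**
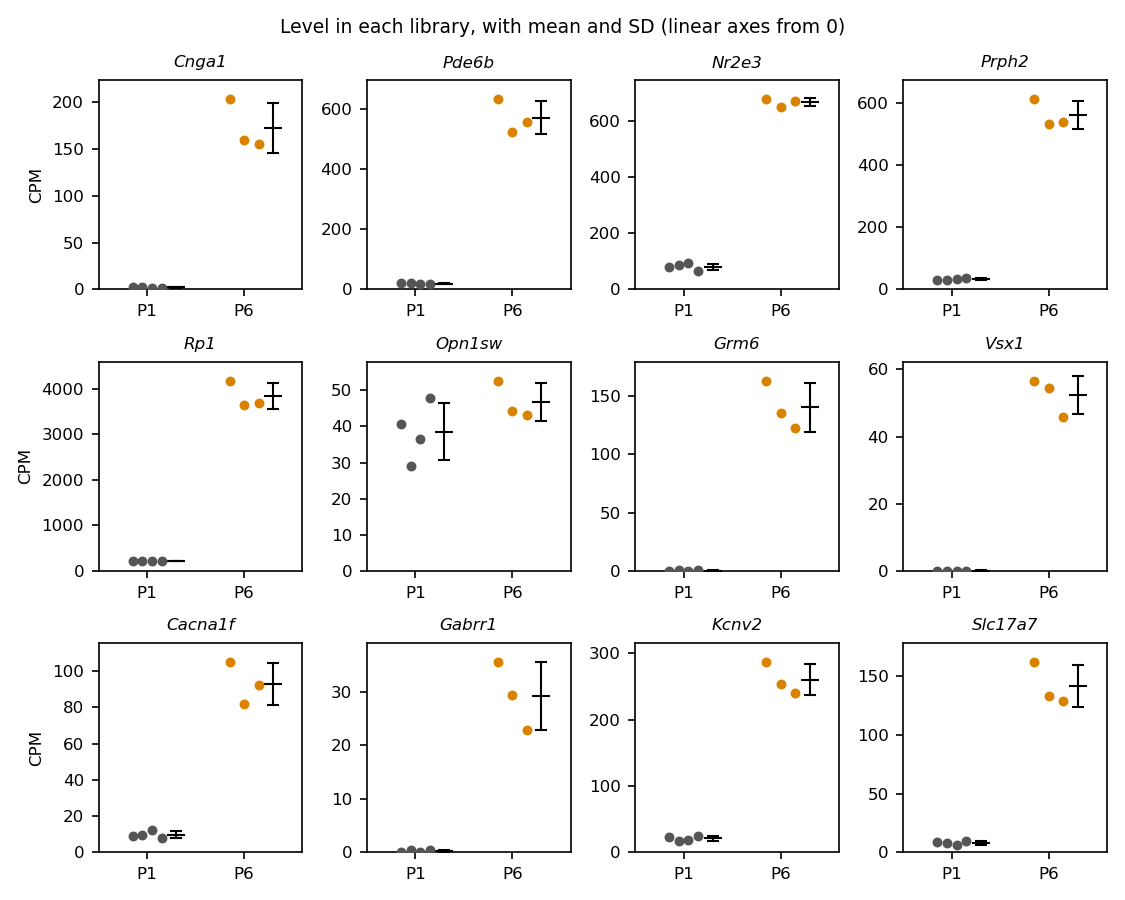
Points are the cpm of each library at P1 (4, gray) and P6 (3, orange), on linear axes that start at 0 and differ between genes, with the mean and SD in black beside them. The P6 libraries lie above the P1 libraries in 11 of the 12 genes, and in Opn1sw the ages overlap, at 29.0 to 47.9 and 43.2 to 52.7 cpm.

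Bipolar cell genes rose in 18 of 26 cases (69.2%) and fell in 2 (7.69%, close to the 6.74% of all features). Their median difference was 1.44 (1.68 with the 5 genes at or under 3 reads per library at P1 set at that limit). Grm6, the glutamate receptor of ON bipolar dendrites, was at 0, 0.504, 0 and 0.591 cpm at P1 and at 163, 135 and 122 cpm at P6 (difference 6.82, SE 0.18, adjusted p 5.9e-24). Vsx1, a homeodomain factor of cone bipolar cells, had no more than 0.123 cpm in any P1 library and 56.7, 54.6 and 45.9 cpm at P6. For both genes the P1 level was a few reads, so the size of the fitted difference depends on the pseudocount.

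Other members of the ON bipolar cascade moved the same way. Trpm1, the cation channel that Grm6 controls, went from 0.882 to 2.72 cpm to 115 to 188 cpm, and Gpr179, which anchors the regulators of that signal, was 19.2-fold higher. Prkca, protein kinase C alpha of rod bipolar cells, measured 63.9 to 72.2 cpm at P1 and 245 to 325 cpm at P6, 4.14-fold higher, and its annotated span overlaps Apoh and other genes on the opposite strand. Grik1, a kainate receptor known from OFF bipolar cells, went from 4.91 to 5.55 cpm to 85.7 to 89.3 cpm, 16.6-fold higher. Scgn, a calcium-binding protein of cone bipolar cells, went from 0 to 0.113 cpm to 10.6 to 12.8 cpm. The factors Isl1 (1.81) and Lhx4 (1.24) rose, and the members that fell were Irx5 (-2.20), an Iroquois factor, and Rgs16 (-1.16).

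Genes of the photoreceptor ribbon synapse rose in 12 of 16 cases, with a median difference of 2.02. Cacna1f and Cacnb2, subunits of the calcium channel that triggers release, were 9.52-fold and 14.2-fold higher. Egflam, which encodes pikachurin of the synaptic cleft, was 3.03-fold higher. Ctbp2, whose alternative product RIBEYE builds the ribbon, measured 219 to 247 cpm at P1 and 329 to 352 cpm at P6 (0.55), with all products of the gene in 1 value.

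Of the general machinery of synaptic vesicles, 11 of 27 genes rose and none fell. Slc17a7, the glutamate transporter of photoreceptor and bipolar vesicles, was 16.9-fold higher (6.11 to 10.1 against 129 to 162 cpm). The complexin Cplx4 was 21.5-fold higher and the syntaxin Stx3 5.97-fold higher, both isoforms of ribbon synapses. Syp, synaptophysin, was 3.30-fold higher, and the vesicle SNARE Vamp2 at 90.3 to 100.2 against 178 to 201 cpm came just under the minimum difference (0.97, adjusted p 6.6e-13). Snap25 (1.31), a SNARE of the cell membrane, and Syt1 (1.34), a calcium sensor of release, also rose. Members with no call included Stx1a (0.04), Cplx1 (0.28), Syn1 (0.58) and Bsn (0.09).

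Transmitter receptors rose in 10 of 46 cases and fell in 1, and 31 were higher by adjusted p alone. Gabrr1, the GABA receptor subunit of bipolar terminals, went from 0.113 to 0.473 cpm to 22.9 to 35.6 cpm. The NMDA receptor subunit Grin2a measured 9.20, 2.77, 6.78 and 6.74 cpm at P1 and 22.9, 22.4 and 22.1 cpm at P6 (1.76, adjusted p 2.8e-08), while Grin2b, its counterpart in younger neurons, measured 63.9 to 114 against 156 to 170.1 cpm (0.80). The glycine receptor subunit Glra1 rose by 2.09. Chrna3, a nicotinic receptor subunit used in spontaneous waves of the young retina, was the member that fell (-1.11, 47.6 to 53.0 against 19.1 to 27.3 cpm), and without P6 replicate 1 the count of members that fell was 0.

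Genes of membrane excitability rose in 11 of 29 cases (37.9%) and fell in 2 (6.90%, close to the 6.74% of all features). Kcnv2, a potassium channel subunit of photoreceptors, was 12.3-fold higher. Slc12a5, the chloride extruder KCC2 that makes GABA inhibitory, was 3.87-fold higher (24.6 to 30.8 against 95.6 to 113 cpm), whereas Slc12a2, the chloride importer NKCC1, had a difference of 0.12. Kcnc2 fell (-1.66), and Atp1b3, at 54.9 to 62.1 against 26.5 to 31.1 cpm, fell by just the minimum for a call. The count that fell was 1 with median-of-ratios scaling, with edgeR, without P1 replicate 2 and without P6 replicate 3.

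Müller glia genes went both ways, with 7 of 16 rising and 2 falling. Rlbp1, the retinaldehyde-binding protein CRALBP, measured 12.5 to 25.6 cpm at P1 and 88.9 to 97.6 cpm at P6, 4.51-fold higher. Clu was 6.22-fold higher and Apoe rose by 1.13, and the transporter gene Abca8a went from 0 to 0.245 cpm to 11.4 to 18.8 cpm. Aqp4, the water channel of mature glia, was still at 2.49 to 5.79 cpm at P6. Glul, glutamine synthetase, measured 163, 142, 147 and 155 cpm at P1 and 77.3, 73.3 and 77.8 cpm at P6, a difference of -0.98 (adjusted p 3.1e-12) just under the minimum, and the ages did not overlap. Sox9 (-1.59) and Dkk3 (-1.48), which progenitors also express, fell, and Kcnj10, the glial potassium channel, had a difference of -0.43.

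The cell types born earlier showed no common direction. Of 22 amacrine genes tested, 3 rose and 4 fell. Ptf1a, the factor that commits cells to the amacrine and horizontal fates, measured 4.75 to 6.03 cpm at P1 and 0 cpm in all 3 P6 libraries, at least 13.6-fold lower against a limit of 3 reads per library. Gad2 was 3.72-fold lower (119 to 139 against 31.2 to 37.3 cpm), while Gad1, the other GABA-synthesizing enzyme, measured 34.1 to 45.0 against 52.5 to 55.8 cpm (0.51). The neuropeptide Npy was 5.54-fold higher. Of 9 horizontal cell genes, 4 rose, among them Calb1 (9.43-fold higher), Prox1 (1.10) and Sept4 (1.63, listed as 4-Sep), and the rise of Gja10 (1.02, 0.355 to 0.613 against 1.41 to 2.62 cpm) was lost without P1 replicate 4, P6 replicate 1 or P6 replicate 3 and with Xist as a covariate. Lhx1 had a difference of 0.12. Calbindin, the product of Calb1, was also used by the paper to mark amacrine cells, and the source of its rise was not tested.

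Ganglion cell genes rose in 1 (5.56%) and fell in 4 (22.2%) of 18 cases, against 6.30% and 6.74% of all features. The POU factors Pou4f1 and Pou4f2 fell, at 112 to 133 against 46.2 to 61.5 cpm and 14.7 to 21.3 against 6.92 to 8.55 cpm. Pou4f1 and Irx2 (-1.24) lost the call without P6 replicate 3, and Pou4f2 (-1.07) without P1 replicate 4 or P6 replicate 2. The neurofilament gene Nefh, of large-caliber axons, rose from 2.45 to 4.79 cpm to 19.7 to 28.7 cpm, while Nefl (0.49), Nefm (0.43) and Sncg (-0.52) had no call.

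Genes of young neurons and growth cones fell in 7 of 31 cases and none rose. Sox11, a factor of newly postmitotic neurons, measured 549.8, 469, 503 and 546 cpm at P1 and 44.1, 66.2 and 63.8 cpm at P6, 8.91-fold lower (difference -3.15, SE 0.13, adjusted p 2.0e-19), and its relative Sox4 fell by 1.09. Marcks, Tubb5 and Cd24a were 2.68-fold, 2.43-fold and 2.41-fold lower. Dcx, doublecortin, was at 213 to 273 against 108 to 129 cpm (-1.01), a call lost without P1 replicate 1 or 4, without P6 replicate 1, with median-of-ratios scaling and with edgeR. Dpysl3 (0.14), Stmn2 (-0.68) and Gap43 (-0.62) had no call. Axon guidance genes rose in 4 (8.51%) and fell in 9 (19.1%) of 47 cases, against 6.30% and 6.74% of all features. Epha7 and Unc5d were 3.99-fold and 4.52-fold higher, Ephb2 was 2.93-fold lower, and Robo2 (-0.70) and Sema3a (-0.73) had no call.

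Genes of fuel supply rose in 10 of 28 cases and none fell. Aldoc, an aldolase isoform, was 7.75-fold higher, Aldoa 3.56-fold higher and Ldha, lactate dehydrogenase A, 2.39-fold higher (101 to 129 against 257 to 282 cpm). Ckmt1, the mitochondrial creatine kinase, went from 2.96 to 5.52 cpm to 44.4 to 50.7 cpm and overlaps Strc on the opposite strand. Hk1 rose (1.75), while Hk2, the hexokinase of mature photoreceptors, measured 10.6 to 17.9 against 13.7 to 14.3 cpm (0.01, adjusted p 0.97). Slc2a1, the glucose transporter GLUT1, had a difference of -0.87. P6 replicate 1 was the highest P6 library for 21 of the 28 genes, and 9 rose without it. Of 81 nuclear genes of the respiratory chain, none rose or fell by limma, 23 were higher and 0 lower by adjusted p alone, 2 rose with edgeR, and the median difference was 0.23.

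Cytosolic ribosomal protein genes were lower by a small amount, with a median difference of -0.56. Of 80 tested, none rose and 6 fell, a share close to the 6.74% of all features. By adjusted p alone 49 of the 80 were lower, against 6476 of the 31760 features tested. Rps16 (19.9 ± 0.895 cpm at P1 and 7.39 ± 0.949 at P6) and Rplp2 fell, by 1.33 and 1.18 on the log2 scale. Ribosomal protein genes have many processed pseudogenes, so their values are uncertain where reads could match both. Cholesterol synthesis and uptake genes fell in 12 of 22 cases and none rose, with a median difference of -1.03. The pathway enzymes Idi1, Sqle and Hmgcs1 were 4.33-fold, 3.35-fold and 2.97-fold lower, and Insig1, which senses sterols, 4.12-fold lower.

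Lipid genes of long-chain polyunsaturated acids, which fill disc membranes, rose in 3 and fell in 3 of 11 cases. Elovl4, which makes the longest chains, was 3.35-fold higher. Agpat3, which places chains in phospholipids, was 2.94-fold higher and Acsl6 2.43-fold higher. The desaturase genes Fads1 (-1.21) and Fads2 (-1.19) and the elongase gene Elovl5 (-1.08) fell. Of 15 retinoid genes tested, 3 rose, 5 fell and 7 had no call, among them Stra6, the receptor for retinol uptake (0.24, adjusted p 0.56). The retinol dehydrogenases of photoreceptors Rdh12 and Rdh8 rose, from 1.35 to 3.55 cpm to 78.9 to 107 cpm and from 0 to 0.613 cpm to 8.96 to 12.3 cpm, and the reductase gene Dhrs3 rose by 2.36. Those that fell make, bind or degrade retinoic acid, namely Aldh1a3 (25.8-fold lower), Aldh1a1 (-1.44), Cyp26a1 (7.74-fold lower), Cyp26c1 (-2.16) and Crabp2 (15.6-fold lower).

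Genes of intrinsic apoptosis rose in 1 and fell in 1 of 16 cases (6.25% each), close to the 6.30% and 6.74% of all features. Bcl2, which protects cells, was 2.79-fold lower, and Bmf, which promotes death, rose by 1.07, a call lost without P6 replicate 3. Bax (0.19, adjusted p 0.52) overlapped between the ages. Of 19 splicing regulators, 1 fell and 1 rose (5.26% each), also no more than among all features. Ptbp1, which represses neuronal exons, fell (99.3 to 122 against 40.7 to 42.1 cpm, 2.74-fold lower) and Celf3 rose (1.15), and Srrm4 (0.54) and Msi1 (-0.14) had no call. Among 15 imprinted genes, 3 fell, namely the growth regulators Plagl1 (8.05-fold lower), Grb10 (3.43-fold lower) and H19 (3.50-fold lower), and Igf2 had a difference of 0.11. Immediate early and clock genes rose in 4 of 24 cases, with Egr1 at 1.59 to 3.19 against 20.8 to 30.4 cpm, Fos at 0.368 to 0.630 against 2.34 to 3.24 cpm, Bhlhe41 6.46-fold higher and Dbp at 1.12. The call of Dbp was lost without P1 replicate 3. Nr1d1, which overlaps Thra on the opposite strand, had a difference of 0.05.

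Of 15 genes of thyroid hormone signaling, 6 rose and 2 fell. The list was chosen by the study on these samples, so it is not independent evidence of its direction. Dio2, the deiodinase that activates the hormone, was at 0, 1.13, 1.13 and 0.946 cpm at P1 and 10.3, 5.52 and 6.07 cpm at P6 (2.22, adjusted p 3.6e-09). Slco4a1, an organic anion transporter, was 7.36-fold higher.

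Cells that enter the retina from outside, or lie next to it, were followed by their own markers. Vessel genes rose in 11 of 26 cases and fell in 1, with a median difference of 0.78. Rgs5 of pericytes was 18.1-fold higher (3.37 ± 0.670 against 60.8 ± 11.3 cpm), the endothelial receptor Flt1 8.27-fold higher and the junction gene Cdh5 9.71-fold higher. Pecam1 also rose (1.82), while other defining genes had no call, with Cldn5 at 0.34, Pdgfrb at -0.39 and Kdr, which progenitors also express, at 411 to 482 against 232 to 246 cpm (-0.93). P6 replicate 1 was the highest P6 library for 17 of 26. Of 15 microglia genes, 1 rose, the protease gene Ctss (1.32), a share of 6.67% against 6.30% of all features, and 3 rose with edgeR. The summed level of the microglia list, over its 18 genes tested or not, was 29.3 to 38.1 cpm at P1 and 50.1 to 54.3 cpm at P6. Of 6 astrocyte genes, Pdgfra rose (1.26), while Gfap was at 2.52 to 11.4 against 6.16 to 9.93 cpm (0.57).

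Blood and pigment epithelium markers were higher at P6 and were low in all 7 libraries. The globin gene Hba-a1 went from 0.630 to 1.36 cpm to 14.3 to 21.9 cpm (3.25, adjusted p 2.7e-09), and 2 of 4 blood genes tested rose. Over the 6 blood genes in the deposited data, tested or not, the summed level was 10.7 to 15.5 cpm at P1 and 39.6 to 50.3 cpm at P6. Much of this sum was Alas2, at 9.44 to 13.2 cpm at P1 and 19.9 to 23.5 cpm at P6 (0.78, no call). Alas2 overlaps Apex2 on the opposite strand. Of 11 pigment epithelium genes tested, 2 rose. The sum over the 13 in the deposited data was 12.4 to 24.0 cpm at P1 and 39.6 to 58.8 cpm at P6. Without P1 replicate 2 or P6 replicate 1, 1 pigment epithelium gene rose, and with edgeR 6 did. Ttr was the largest of these at 0.756 to 2.21 against 10.8 to 15.8 cpm, and Rpe65 was at 0 to 0.123 against 0.276 to 1.41 cpm. The part of these cells in the rises of vessel and retinoid genes was not tested. Lens, muscle and fibroblast markers were near the limit of detection at both ages, with lens Cryaa at 0 cpm in all P1 libraries and at most 0.324 cpm at P6, Acta1 at 0.473 to 1.19 cpm and Col1a1 at 0.123 to 0.882 cpm. Of these 3 lists Birc7, of the lens list, fell (-1.52).

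The position of P6 among the 7 ages differed between the groups. The median level of the mitosis list was 6.14 at E14 and 5.93 at P1 on the log2(cpm + 1) scale, 2.13 at P6 and 1.07 at P15. That of the replication list went from 4.96 at P1 to 3.00 at P6 and 2.63 at P15, so that the step from P1 to P6 was larger than that from P6 to P15 in both lists. Rod phototransduction genes stood at a median of 3.23 at P1, 7.43 at P6 and 9.86 at P15, and outer segment genes at 5.50, 8.43 and 9.10. Bipolar cell genes went from 2.46 to 4.39 and 5.21. The median of the cone genes stood at 3.81 at P1, 4.76 at P6, 5.44 at P15 and 6.44 at P60. Cholesterol synthesis genes were lowest at P6 among the 7 ages, at 3.97 against 5.26 at P1 and 4.37 at P15, and genes of young neurons stood at 7.62 at P1, 6.85 at P6 and 5.49 at P15. These medians describe lists over pools of 3 to 6 libraries per age and were not tested.

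**Figure D5:**
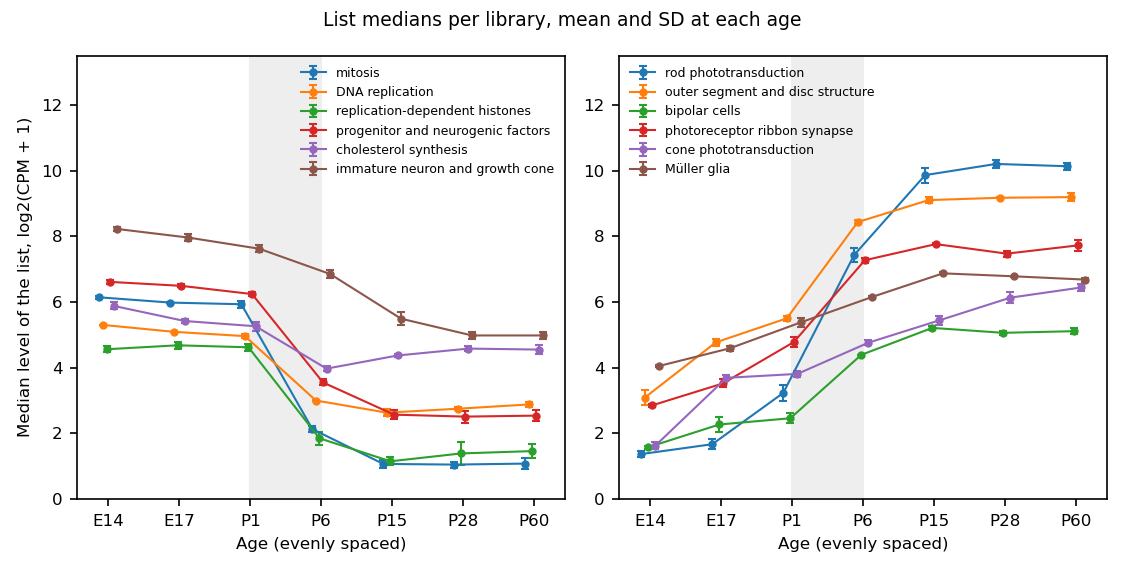
The vertical axis is the median level of a gene list in log2(cpm + 1), computed in each library, with points at the mean and bars at the SD over the 3 to 6 libraries of an age; ages are evenly spaced on the horizontal axis and the P1 to P6 interval is shaded. Mitosis genes drop from 5.93 to 2.13 in the shaded interval, whereas rod phototransduction genes climb from 3.23 to 7.43 in it and reach 9.86 at P15.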

How the data were processed

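RNA-seq libraries were prepared from pooled whole retinas of wild type C57BL/6J mice with a SMARTer total RNA kit and sequenced as single-end 50-base reads, and per the labels were aligned with STAR to mm10; the gene annotation and strand setting are not given in the sources used here. The authors deposited read counts scaled to library totals (CPM) for 38168 features, 14905 of them without a Gene ID. Whole reads were recovered from the CPM steps for 100.0% of values (tolerance 0.02 reads), which gave the number of reads counted over all features in each library. A total of 92 of 217 annotated genes named here overlap a gene on the opposite strand, and without a stated strand setting their reads cannot be told apart.

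Features that reached 1 CPM in 3 or more of the 27 libraries were tested on log2(CPM + 1) with limma 3.58.1 (R 4.3.3), with trend, age as a factor over all 27 libraries, the contrast P6 minus P1 and Benjamini-Hochberg adjustment over all features. A change needed an adjusted p under 0.05 and a difference of at least 1. Alternatives were another pseudocount, filter, scaling, sample set and minimum, a replicate block, Xist as a covariate, each library left out, and edgeR 4.0.16 on the recovered reads. Scripts were tested on simulated data. Named genes were the 10 largest rises and 10 largest falls, the anchors of each list and up to 3 further changed members with the largest differences; other list members named in the text were chosen after their values were seen. The members and lists were chosen with earlier results of these data known. Of 1124 list genes looked for in 44 lists, 1081 were tested, 190 rose and 277 fell. Some genes are not reported here. Mitochondrially encoded messages were searched by symbols that begin with mt-, which matched no entry; those listed under other symbols, such as COX1, were tested among all features but are in no list. Promoters came from RefSeq (GRCm38.p6). The limit of detection of 3 reads covers counting error only, and reads carried no molecular identifiers.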

Additional observations from a re-analysis of the deposited data

Results flagged for a closer look

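For 18 of 205 genes, 1 of the 4 P1 libraries lay apart from the other 3 by more than Dixon's 95% critical gap. Chance gives such a gap in about 1 in 20 groups, and groups of 3, such as P6, were not examined.

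P1 replicate 2 was low for Ccnb1 (48.7 cpm against 56.2 to 57.1 in the other P1 libraries), Epha5 (318 against 410.5 to 427), Rplp2 (56.6 against 66.6 to 68.3) and Apaf1 (42.1 against 51.8 to 52.5). The same library was high for Jag1 (8.19 against 5.52 to 5.91 cpm) and Glra1 (1.13 against 0.452 to 0.491).

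P1 replicate 1 was high for Hist1h2ao (167 cpm against 118 to 125), Fgf15 (79.4 against 72.5 to 73.6) and Cyp26a1 (30.0 against 26.3 to 26.8). It was low for Alas2 (9.44 against 13.1 to 13.2). Its 0.123 cpm of Rpe65, against 0, was 1 read, under the limit of detection.

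P1 replicate 4 was low for Mki67 (1997 cpm against 2315 to 2366) and Nrl (35.5 against 41.7 to 42.5). P1 replicate 3 was low for Gucy2f (0.339 cpm against 0.882 to 0.981) and E2f7 (80.8 against 90.8 to 92.0). This library also held 1 read of Scgn (0.113 cpm against 0), under the limit of detection. It also had 1093 cpm of Xist against 1.26 to 1.59, and 0 cpm of Ddx3y against 48.4 to 53.1.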

How the results depend on the processing

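The 4141 features that changed (2000 rose, 2141 fell) became 2206 (1177 and 1029) when a mean level of 10 cpm or more was required, which tests fewer features, and 12178 (5702 and 6476) with no minimum difference. With edgeR 3117 rose, and the cause was not tested. Without 1 library at a time the counts were 4077 to 4304 changed, 1968 to 2121 rising and 2109 to 2233 falling. Of the list genes 467 changed, 800 with no minimum difference, 460 to 472 without 1 library and 385 to 505 under the other alternatives. The labels share replicate numbers between the ages, but same-numbered P1 and P6 libraries did not deviate together (r -0.027 to 0.029, other pairs -0.056 to 0.034), and with the replicate number as a block 4242 features changed. No named gene reversed under any of these alternatives. With the block 210 of 215 named genes kept their call and with edgeR 209. Dcx lost its call in both, and Lin28b, Gja10 and Pou4f2 with the block. Calls near the minimum difference were lost under at least 1 alternative for Lin28b, Gja10, Pou4f2, Irx2, Pou4f1, Dcx, Bmf and Dbp. A gene with few reads at 1 age, such as Vsx1, Grm6 or Scgn, has a difference whose size depends on the pseudocount, and 3 reads were worth up to 0.424 cpm.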
